A study of Homo sapiens with 4 samples.

Results

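Stathmins and structural microtubule-associated proteins (MAPs) are proteins that set how stable microtubules are. The genes described here are 4 stathmins (STMN1, STMN2, STMN3 and STMN4) and 6 MAPs (MAPT, MAP2, MAP1A, MAP1B, MAP4 and MAP6). They were chosen by name, and all 10 were found among the 23576 rows of the deposited table. Each was tested by the authors and had a mean of at least 1 FPKM, a fragment count scaled by transcript length and sequencing yield. STMN4 reached that mean only through differentiated cells.

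RNA was sequenced in SH-SY5Y cells, an established line grown from a human neuroblastoma, a tumour of the sympathetic nervous lineage, which can be driven to extend neurites. The 2 differentiated libraries came from cells collected on day 16, after 7 days in 10 µM retinoic acid with serum and 9 days in 20 ng/mL brain-derived neurotrophic factor (BDNF) without serum. The 2 undifferentiated libraries came from cells collected on day 0 that had neither agent and were kept in serum. Retinoic acid, BDNF, serum withdrawal and time in culture all differ between the groups, so their parts cannot be told apart. The design asks how expression differs after neuronal differentiation.

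Microtubules are polymers of alpha- and beta-tubulin that grow and shrink at their ends. Stathmins bind free tubulin dimers and favour shrinkage until phosphorylation releases the dimers, whereas structural MAPs bind along the polymer and stabilise, space or bundle it. In neurons, tau (the product of MAPT) is known mainly from axons and MAP2 from dendrites, and the stathmin STMN2 is a marker of growing neurites.

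The authors deposited 1 FPKM per gene and group, so neither the depth of the libraries nor how far the 2 of each group lay apart is known. The error beside a fold change was worked out from the authors' own statistic and is called the implied standard error. The fold changes of the whole table were not centred on 0. Over the 11169 tested genes that averaged at least 1 FPKM and had a value above 0 in both groups, the median log2 fold change, differentiated over undifferentiated, was -0.62 and 84.0% were negative. Each gene is therefore described by the authors' call (q below 0.05) and by a median-gene test. That test divides the fold change less the median by the implied standard error, takes the normal p and adjusts it by Benjamini-Hochberg over the 11169 genes. In bulk RNA, fewer cells of a type and less RNA per cell cannot be told apart. The sympathoadrenal identity of the cells was checked on 9 markers, of which the authors called 0 higher and 6 lower and the median-gene test put 4 below. Over all genes these tests put 28.0% lower and 4.56% below. HAND2, a transcription factor of that lineage, stood at 136 FPKM in differentiated and 205 FPKM in undifferentiated cells. The authors called it lower (log2 fold change -0.58, q = 0.0242 in their deposited table), and the median-gene test did not put it below. GATA2 (5.34 and 38.5 FPKM), GATA3 (5.43 and 19.0 FPKM) and DBH (11.9 and 50.7 FPKM), the gene of the enzyme that makes noradrenaline, were also lower in differentiated cells. Of 12 markers of other cell types, 10 were below 1 FPKM in both groups, and the list summed to 8.09 FPKM in differentiated and 8.83 FPKM in undifferentiated cells. The exceptions were the collagen gene COL3A1 (3.51 and 3.34 FPKM) and S100B (2.98 and 4.33 FPKM).

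The members fall into gene families of related sequence, and the stretches that follow show how close that relation is in DNA. STMN1 and STMN3 share 68 of 90 bases in their most alike coding stretch. This pair is shown because the genes had nearly the same fold change. No stathmin pair shares fewer: STMN1 with STMN2 share 73 of 90 bases, and STMN2 with STMN3 share 72. The fold changes of those more alike pairs differed, as given below. Capitals mark bases identical in both. The sequences are from GENCODE release 29 (GRCh38), minus strand, exon 4 of STMN1 at chr1:25901590-25901679 and exon 4 of STMN3 at chr20:63642207-63642296.
STMN1: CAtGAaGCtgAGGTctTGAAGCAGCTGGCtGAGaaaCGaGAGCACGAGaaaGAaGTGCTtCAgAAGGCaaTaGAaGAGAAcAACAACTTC
STMN3: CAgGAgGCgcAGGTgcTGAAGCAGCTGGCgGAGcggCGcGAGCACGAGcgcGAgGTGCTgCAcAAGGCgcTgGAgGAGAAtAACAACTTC

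MAPT, MAP2 and MAP4 encode proteins with related microtubule-binding repeats. They are shown together because MAPT rose while MAP2 and MAP4 were not called. The most alike 90 coding bases of MAPT and MAP2, with the best match in MAP4, have 52 bases identical in all 3, marked by capitals. They span 2 exons in each gene, at chr17:45996587-45996664 and chr17:46010310-46010321 (MAPT, plus strand), chr2:209710177-209710254 and chr2:209725709-209725720 (MAP2, plus strand), and chr3:47870813-47870890 and chr3:47869316-47869327 (MAP4, minus strand), from GENCODE release 29 (GRCh38).
MAPT: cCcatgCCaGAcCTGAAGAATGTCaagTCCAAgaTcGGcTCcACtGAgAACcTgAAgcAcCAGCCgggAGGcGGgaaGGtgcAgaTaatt
MAP2: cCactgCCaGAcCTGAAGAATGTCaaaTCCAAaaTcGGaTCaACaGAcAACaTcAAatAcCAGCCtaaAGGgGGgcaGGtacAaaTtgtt
MAP4: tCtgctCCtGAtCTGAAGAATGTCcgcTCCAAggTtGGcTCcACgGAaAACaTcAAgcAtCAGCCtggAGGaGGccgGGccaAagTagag

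Despite this relation, exact matches between the genes in the same orientation are short. Members were not searched against each other on opposite strands. Across all annotated transcripts, the longest run shared by any 2 members was 32 bases, between MAPT and MAP4. The longest between 2 stathmins was 20 bases, for STMN1 with STMN2 and for STMN2 with STMN3. Runs of 75 bases or more with genes outside the set were found for STMN1 (75 bases, with AC067750.1) and MAPT (78 bases, with MAPT-AS1), both annotated as antisense. No source used here says whether the authors counted by strand. MAPT-AS1 stood at 0.145 FPKM in differentiated and 0.0328 FPKM in undifferentiated cells.

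In differentiated cells 3 of the 10 genes, STMN4, MAPT and MAP6, rose and 2, STMN1 and STMN3, fell by the calls of the authors' deposited table. Over all 12810 genes tested, the authors called 30.4%, with 2.43% higher and 28.0% lower. By the median-gene test, 4 of 10 members lay above (STMN4, MAPT, MAP6 and STMN2) and 0 below, beside 5.64% above and 4.56% below over all 11169 genes. The number above was 3 without the filter on low values and 5 against genes of similar expression. A filter at 5 FPKM left out MAPT and MAP1A. There the number above was also 4, but with MAP1B in place of MAPT. Under quantile normalization and an equal sum, the rescaled fold changes were set against 0, not the median gene, with 5 and 6 above. In each of these settings 0 lay below. The 2 called falls were within their error of the median gene. At an unadjusted p below 0.05 MAP1B and MAP4 joined the genes above, and 0 members lay below. No share over all genes is given at that level or for the other filters and scalings. Those counts thus have no background to be read against. The median log2 fold change of the members was -0.04, beside -0.62 over all genes.

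**Figure D1:**
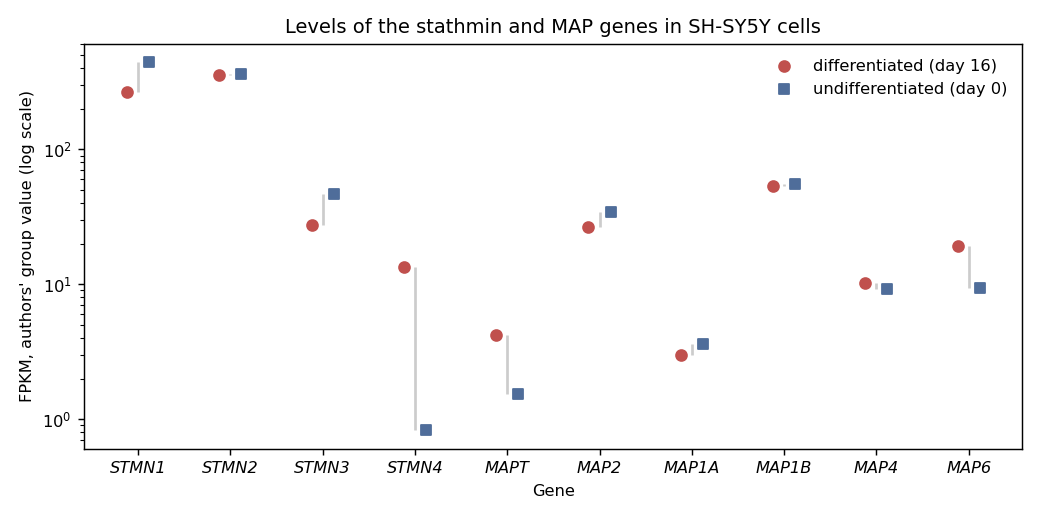
Level of each of the 10 genes as the authors' group value in FPKM on a log scale, with circles for differentiated cells at day 16 and squares for undifferentiated cells at day 0. STMN4 shows the widest gap between the groups, with 13.4 FPKM in differentiated and 0.826 FPKM in undifferentiated cells, while the marks of STMN2 and MAP1B nearly coincide in height.

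STMN4 encodes a stathmin found mainly in neurons. Its row lies at chromosome 8, 27093814 to 27115903 (hg19). In the authors' deposited table it stood at 13.4 FPKM in differentiated cells, against 0.826 FPKM in undifferentiated cells, a 16.2-fold difference. On the log2 scale the fold change was 4.02, the implied standard error 0.648 and the 95% interval 2.75 to 5.29 (q = 4.08e-08 in the authors' deposited table). Among the 11169 genes, 99.9% had a lower fold change. The implied error was also the largest of the 10 members, the lowest being 0.205 for STMN2. By level, STMN4 ranked 2714th of the 12810 tested genes in differentiated and 11478th in undifferentiated cells. It still was the lowest of the stathmins in both groups. With pseudocounts of 1 and 3 FPKM the log2 fold change was 2.97 and 2.10.

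STMN1 encodes the widely expressed founding stathmin, which is abundant in dividing cells. In the authors' deposited table it had 267 FPKM in differentiated cells, against 442 FPKM in undifferentiated cells (chromosome 1, 26210677 to 26233368, hg19). The authors called this a fall, with a log2 fold change of -0.73, an implied standard error of 0.214 and q = 0.00468 in their deposited table. The median-gene test, built on the authors' statistic, put it at -0.10 with a 95% interval of -0.52 to 0.32 (adjusted p = 0.884), and it took a positive sign under the other 3 scalings tried (equal sum, quantile normalization and genes of similar expression). STMN1 therefore fell in listed FPKM by about as much as the median gene did.

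STMN3, which encodes another neuronal stathmin, had 27.4 FPKM in differentiated cells, against 46.4 FPKM in undifferentiated cells, in the authors' deposited table (chromosome 20, 62271061 to 62284780, hg19). The fold change of -0.76 (log2) had an implied standard error of 0.259 (q = 0.0156 in the authors' deposited table). In the same test on the authors' statistic it stood at -0.14 (95% interval -0.65 to 0.37, adjusted p = 0.866). Its log2 fold change took a positive sign when FPKM was rescaled to an equal sum. The fold changes of STMN1 and STMN3 differed by 0.04, with a 95% interval of -0.62 to 0.69.

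STMN2, also known as SCG10, is a membrane-anchored stathmin of growth cones. It had 357 FPKM in differentiated cells, against 360 FPKM in undifferentiated cells, in the authors' deposited table (chromosome 8, 80523049 to 80578410, hg19). The log2 fold change was -0.01, with a 95% interval of -0.41 to 0.39 (q = 0.979 in the authors' deposited table). Against the median gene, with the error from the authors' statistic, STMN2 stood at 0.61 (95% interval 0.21 to 1.01, adjusted p = 0.0322), but the adjusted p was 0.0518 without the filter on low values.

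The stathmins thus did not keep their proportions. FPKM is scaled to length, so levels can be compared between genes, and a share within a group does not depend on any single factor that scales a whole group. Of the summed stathmin FPKM, STMN2 held 53.7% in differentiated and 42.4% in undifferentiated cells. STMN1 held 40.2% in differentiated and 52.0% in undifferentiated cells. By group value the most abundant stathmin was thus STMN2 in differentiated and STMN1 in undifferentiated cells. Whether these levels differ beyond the spread of the libraries cannot be said, as each group has 1 value per gene. The ratio of STMN1 to STMN2 was 0.748 in differentiated and 1.23 in undifferentiated cells. The fold change of STMN2 exceeded that of STMN1 by 0.72 on the log2 scale, with a 95% interval of 0.14 to 1.30. STMN3 held 4.12% in differentiated and 5.47% in undifferentiated cells, and STMN4 held 2.01% and 0.0973%. The sum over the 4 stathmins was 665 FPKM in differentiated and 849 FPKM in undifferentiated cells. Even after its rise, STMN4 thus formed a small part of the stathmin total.

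**Figure D2:**
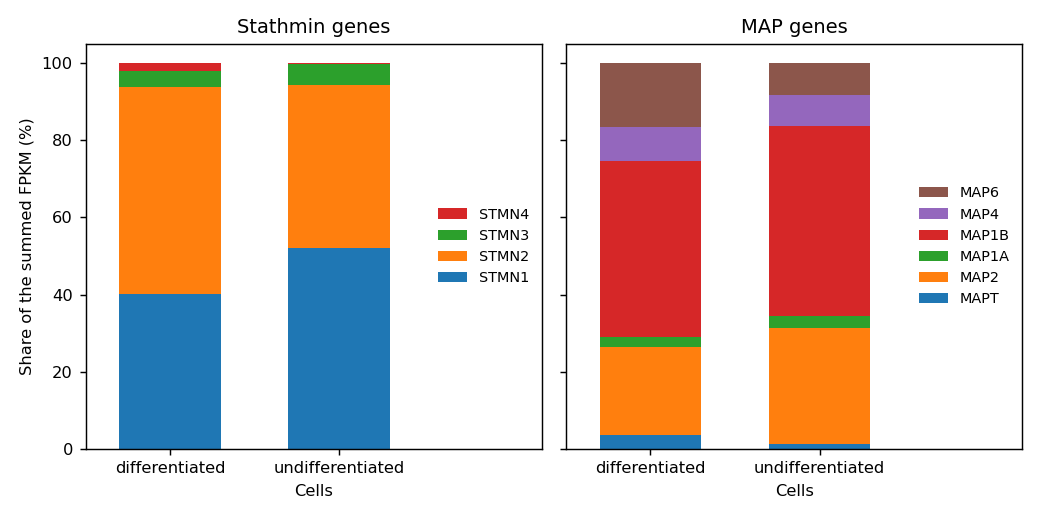
Share of each gene in the summed FPKM of its family (percent), with stathmins on the left and MAPs on the right, and differentiated cells left of undifferentiated cells in each panel. The STMN2 part is 53.7% in differentiated and 42.4% in undifferentiated cells, and the MAP6 part 16.5% and 8.23%.

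MAPT, the gene of tau, had 4.18 FPKM in differentiated cells, against 1.54 FPKM in undifferentiated cells, in the authors' deposited table. On the log2 scale the fold change was 1.44 and the implied standard error 0.369 (q = 0.000932 in the authors' deposited table), and relative to the median gene 2.07 (95% interval 1.34 to 2.79, adjusted p = 1.99e-06). With a pseudocount of 3 FPKM the log2 fold change was 0.66. The row is listed on the alternative haplotype contig chr17_ctg5_hap1, 762281 to 946818 (hg19), and 0 rows for MAPT are listed on chromosome 17 itself. No source used here says how fragments that match both were treated. Of the 10 tested rows on that contig, the authors' deposited table called MAPT higher, 2 others lower and the remaining 7 neither.

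MAP6 encodes the stable tubule only polypeptide (STOP), which protects microtubules from cold and drug-induced disassembly. It had 19.1 FPKM in differentiated cells, against 9.36 FPKM in undifferentiated cells, in the authors' deposited table (chromosome 11, 75297963 to 75379479, hg19). On the log2 scale the fold change was 1.03 and the implied standard error 0.328 (q = 0.00911 in the authors' deposited table), and relative to the median gene 1.65 (95% interval 1.01 to 2.30, adjusted p = 2.57e-05). MAP6 ranked 1947th of the tested genes in differentiated and 5195th in undifferentiated cells. Its level was 1.87 times that of MAP4 in differentiated cells, and 1.01 times in undifferentiated cells.

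MAP2, the dendritic member of the tau family, had 26.6 FPKM in differentiated cells, against 34.1 FPKM in undifferentiated cells, in the authors' deposited table (chromosome 2, 210288771 to 210598834, hg19). Its log2 fold change of -0.36 was not called (95% interval -0.83 to 0.11, q = 0.253 in the authors' deposited table). By listed FPKM, MAP2 stood at 6.36 times MAPT in differentiated cells, and 22.2 times in undifferentiated cells. The MAPT level is that of its haplotype contig row alone. The fold change of MAPT exceeded that of MAP2 by 1.80 on the log2 scale (95% interval 0.94 to 2.67).

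MAP4, the related MAP of non-neuronal and dividing cells, had 10.2 FPKM in differentiated cells, against 9.28 FPKM in undifferentiated cells, in the authors' deposited table (chromosome 3, 47892180 to 48130769, hg19). Its log2 fold change was 0.14, with a 95% interval of -0.48 to 0.76 (q = 0.773 in the authors' deposited table). The median-gene test on the authors' statistic put it at 0.76 (adjusted p = 0.112). With FPKM rescaled to an equal sum its log2 fold change was 0.92. Set against 0 rather than the median gene, this had an adjusted p of 0.0354 on the authors' statistic. The fold change of MAPT exceeded that of MAP4 by 1.30 on the log2 scale (95% interval 0.35 to 2.25), and that of MAP4 less MAP2 was 0.50 (95% interval -0.28 to 1.28).

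MAP1B, a MAP of growing axons that appears early in neurons, was the most abundant of the 6 MAPs in both groups. It had 53.2 FPKM in differentiated cells, against 55.8 FPKM in undifferentiated cells, in the authors' deposited table (chromosome 5, 71403118 to 71505397, hg19). Its log2 fold change was -0.07, with a 95% interval of -0.47 to 0.33 (q = 0.828 in the authors' deposited table). The median-gene test on the authors' statistic put it at 0.55 (adjusted p = 0.0649), and at 0.67 (adjusted p = 0.0177) against the median of genes of similar expression. It also lay above the median gene with a filter at 5 FPKM (adjusted p = 0.0263, on the authors' statistic). After quantile normalization and rescaling to an equal sum it was set against 0 instead, and lay above (adjusted p = 0.0287 and 0.00858, on the authors' statistic).

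MAP1A, the relative of MAP1B known from mature neurons, had 2.98 FPKM in differentiated cells, against 3.63 FPKM in undifferentiated cells, in the authors' deposited table. The fold change of -0.29 (log2) had a 95% interval of -1.26 to 0.69 (q = 0.701 in the authors' deposited table), so the difference was smaller than this test could detect. The row is listed over chromosome 15, 43663313 to 43910998 (hg19), a span that overlaps 5 other rows, and fragments of these genes are uncertain. Among them, TP53BP1 stood at 17.0 FPKM in differentiated and 25.0 FPKM in undifferentiated cells.

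**Figure D3:**
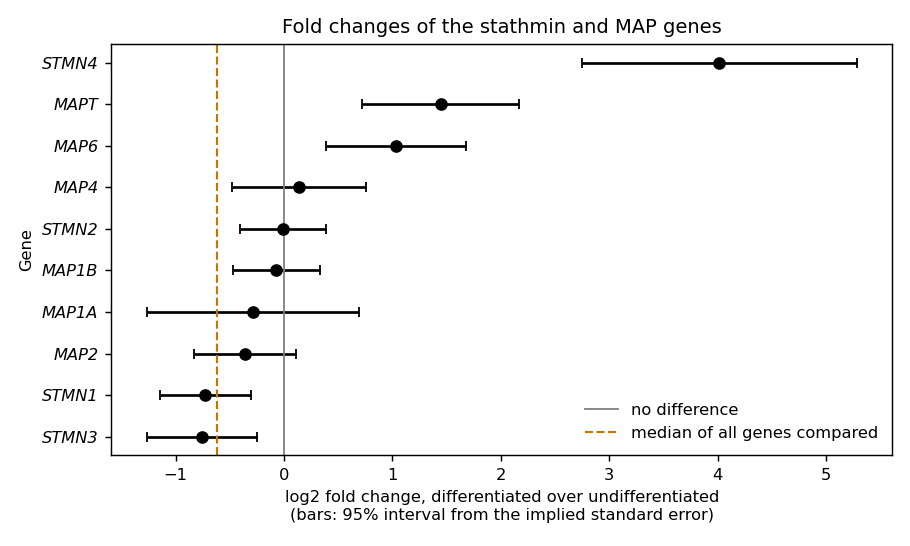
Log2 fold change of each gene, differentiated over undifferentiated, with its 95% interval from the implied standard error. The grey line marks no difference and the dashed line the median of all genes compared, at -0.62. Only the intervals of STMN4, MAPT and MAP6 lie wholly above 0, and those of STMN1 and STMN3 lie wholly below 0 and include the dashed line.

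The MAPs together summed to 116 FPKM in differentiated and 114 FPKM in undifferentiated cells. MAP1B held 45.7% of this in differentiated and 49.1% in undifferentiated cells, and MAP2 held 22.9% and 30.0%. MAP6 held 16.5% in differentiated and 8.23% in undifferentiated cells, and MAPT 3.59% and 1.35%. MAP4 (8.79% and 8.15%) and MAP1A (2.57% and 3.20%) moved least in share. In differentiated cells the order from high to low was MAP1B, MAP2, MAP6, MAP4, MAPT and MAP1A. In undifferentiated cells it was MAP1B, MAP2, MAP6, MAP4, MAP1A and MAPT, with MAP6 and MAP4 at nearly the same level. With no values per library, it cannot be said which neighbours in these orders differ beyond their spread. The share and place of MAPT also rest on its haplotype contig row alone.

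Within the families 21 pairs of fold changes were compared, and the 95% interval of the difference excluded 0 in 13 of them, without adjustment for their number. Of 6 stathmin pairs, 5 differed in this sense, STMN1 with STMN3 being the exception. Of 15 MAP pairs, 8 did, and each of these set MAPT or MAP6 against MAP4, MAP1B, MAP1A or MAP2. The interval that came closest to 0 was that of MAP6 less MAP4, at 0.89 with an interval of 0.0023 to 1.78. MAPT and MAP6 differed by 0.41, with an interval of -0.56 to 1.38. Among MAP4, MAP1B, MAP1A and MAP2, the intervals all included 0 and reached as far as 1.58. A single scaling factor per group cancels in these differences, whereas quantile normalization and comparison with genes of similar expression shift genes unequally. Under these, MAP1A less MAP2 took a negative sign (-0.10 under both, against 0.07 as deposited), MAPT less MAP6 stood at 0.22 and 0.21, and MAP1B less MAP1A stood at 0.40 and 0.43, against 0.21 as deposited. The standard errors were combined as if the genes were independent.

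The promoters of STMN1 and STMN3 are shown because these 2 stathmins had nearly the same fold change. The letters are from RefSeq (GRCh38.p14), minus strand, upstream of the start site and of any GENCODE exon that reaches into the window, at chr1:25906467-25906669 for STMN1 and chr20:63652767-63653016 for STMN3. STMN1 has further start sites, which are not shown. Capitals mark GGGCGG (the GC box, either strand) and CCAAT (the CCAAT box, either strand).
STMN1: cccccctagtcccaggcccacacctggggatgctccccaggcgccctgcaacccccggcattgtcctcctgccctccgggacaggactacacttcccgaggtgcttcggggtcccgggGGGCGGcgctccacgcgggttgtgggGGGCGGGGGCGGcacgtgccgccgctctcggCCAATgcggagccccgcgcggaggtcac
STMN3: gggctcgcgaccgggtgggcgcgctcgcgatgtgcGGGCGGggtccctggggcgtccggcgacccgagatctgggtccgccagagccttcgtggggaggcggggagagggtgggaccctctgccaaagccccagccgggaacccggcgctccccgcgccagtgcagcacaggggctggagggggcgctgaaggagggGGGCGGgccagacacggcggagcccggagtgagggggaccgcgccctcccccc

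The STMN1 stretch holds 3 GC boxes and 1 CCAAT box, and the STMN3 stretch 2 GC boxes and 0 CCAAT boxes. GC and CCAAT boxes do not overlap each other there. Among 35116 promoter windows of 250 bases upstream, 42.6% held a GC box and 32.0% a CCAAT box. Of 13 windows of the 6 members matched there, 8 held a GC box and 4 a CCAAT box. STMN2, STMN4, MAPT and MAP6, the members above by the median-gene test, had no window there. The motif counts therefore do not cover them. The stretches were 75.4% (STMN1) and 78.0% (STMN3) G or C. AGGTCA, the letters of a nuclear receptor half-site, was found in 1 of the 13 windows and in 12.1% of all windows. The TATA box letters TATAAA were found in 2 of the 13 windows and in 10.7% of all windows. The letters TTTGAA, of a cell cycle element, were found in 2 of 13 and in 13.3% of all. The E-box CACGTG was found in 1 of 13 and in 6.34% of all, and the E-box CAGCTG in 0 of 13 and in 14% of all. All motifs were searched on both strands.

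Other genes of the microtubule system were set beside the members in 5 lists. The lists were chosen with results of these data known, so their counts are no independent support. The authors' calls are to be read against the 2.43% higher and 28.0% lower over all tested genes. Counts of the median-gene test are to be read against 5.64% above and 4.56% below over the 11169 genes. The authors' deposited table called all 12 spindle MAPs, which build the mitotic spindle, lower, and 8 of them were below by the median-gene test. The number below was 6 under quantile normalization and 5 against genes of similar expression. No share over all genes is given for these settings, so the shares above are no background for them. ASPM, which acts at spindle poles, had 13.2 FPKM in differentiated cells, against 52.3 FPKM in undifferentiated cells (log2 fold change -1.98, q = 9.18e-14 in the authors' deposited table). SPAG5 (-1.67) and TPX2 (-1.64), which organise spindle microtubules, were also lower by the authors' deposited table and were below by the median-gene test (adjusted p = 0.00134 and 0.00144). The list median was -1.44, beside -0.62 over all genes.

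For 16 other structural MAPs the authors' deposited table gave 1 rise and 5 falls, or 6.25% and 31.3%, the falls near the share over all genes. Of the 13 that entered the median-gene test, 2 were above and 0 below. Under quantile normalization, for which no share over all genes is given, 1 was below. TPPP3, which bundles microtubules, had 24.5 FPKM in differentiated cells, against 5.97 FPKM in undifferentiated cells (log2 fold change 2.04, q = 1.08e-06 in the authors' deposited table). EML2 had a log2 fold change of 1.30 that the authors did not call (q = 0.0653 in their deposited table), and was above by the median-gene test (adjusted p = 0.0113). MAP7D3 fell in the authors' deposited table, with a log2 fold change of -1.56, and missed the threshold of the median-gene test (adjusted p = 0.0521). The list median equalled that of all genes, -0.62.

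For 19 tested severing and tubulin-modifying enzymes the authors' deposited table gave 2 rises and 1 fall (10.5% and 5.26%), and the median-gene test put 4 above and 0 below. AGTPBP1, which shortens the glutamate chains of tubulin, had 19.9 FPKM in differentiated cells, against 9.15 FPKM in undifferentiated cells (q = 0.000105 in the authors' deposited table). VASH1, which removes the terminal tyrosine of alpha-tubulin, had 4.24 FPKM in differentiated cells, against 1.52 FPKM in undifferentiated cells (q = 0.000129 in the authors' deposited table). KATNAL1, of the katanin severing family, stood at 0.40 on the log2 scale, which was not called in the authors' deposited table (q = 0.258), and was above by the median-gene test (adjusted p = 0.00366). The list median was -0.14.

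For 14 tested plus-end binding proteins the authors' deposited table gave 1 rise and 3 falls (7.14% and 21.4%), and the median-gene test put 2 above and 0 below. CLIP2, which links membranes to microtubule ends, had 9.43 FPKM in differentiated cells, against 5.13 FPKM in undifferentiated cells (q = 0.00811 in the authors' deposited table). CLASP1, which stabilises plus ends, fell in the authors' deposited table, with a log2 fold change of -1.19, and missed the threshold of the median-gene test (adjusted p = 0.189). MAPRE2, an end-binding protein gene, stood at 0.34 on the log2 scale (q = 0.417 by the authors) and was above by the median-gene test (adjusted p = 0.0221). The list median was -0.32.

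For 24 kinases and phosphatases that act on MAPs or stathmins the authors' deposited table gave 0 rises and 5 falls, the falls making 20.8% of the list. Of the 22 that entered the median-gene test, 1 was above and 0 below. MARK4, a kinase of tau and MAP4, stood at 2.16 FPKM in differentiated and 1.37 FPKM in undifferentiated cells (above by the median-gene test on the authors' statistic, adjusted p = 0.0321). PPP3CA, a calcineurin subunit, had 4.63 FPKM in differentiated cells, against 10.5 FPKM in undifferentiated cells, and UHMK1, a kinase that phosphorylates STMN1, had 7.48 FPKM in differentiated cells, against 14.3 FPKM in undifferentiated cells. Both fell in the authors' deposited table (q = 0.00177 and 0.00297), and neither passed the median-gene test. The list median was -0.51.

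**Figure D4:**
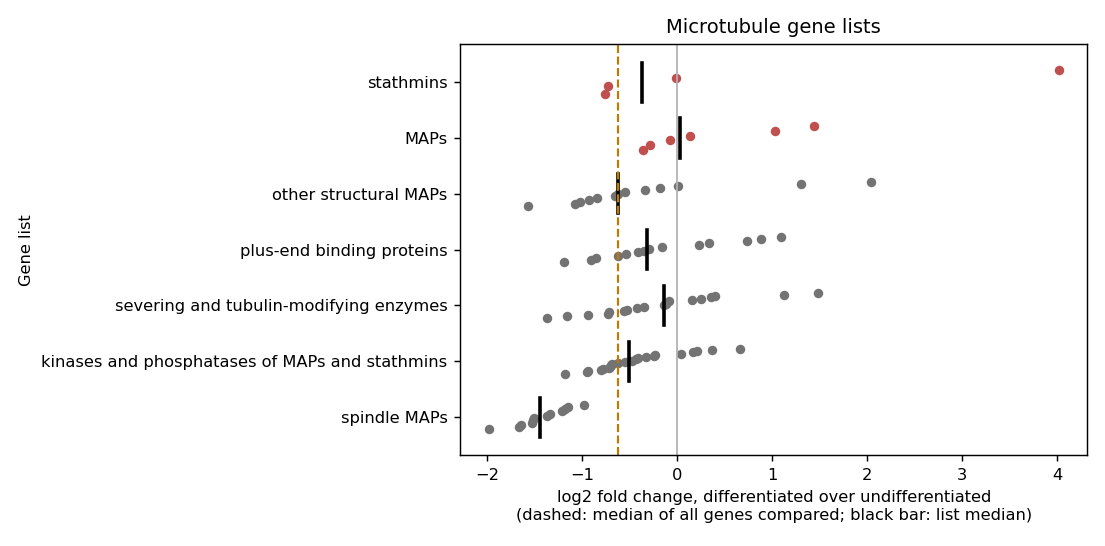
Log2 fold change of each gene, differentiated over undifferentiated, in the 4 stathmins and 6 MAPs described here (red) and in the 5 other microtubule lists (grey), with a black bar at each list's median and a dashed line at the median of all genes, -0.62. All 12 spindle MAPs lie left of the dashed line, and STMN4 at 4.02 lies farthest to the right.

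For each member, the gene with the most similar pair of group values was found as the smallest distance in log2 FPKM over the 2 groups. For MAPT this was VASH1 (distance 0.0270) and for MAP6 it was AGTPBP1 (0.0645), both named above. For STMN2 it was the neuronal ubiquitin hydrolase gene UCHL1 (0.0986), at 334 FPKM in differentiated and 356 FPKM in undifferentiated cells. For MAP1B it was the neuronal RNA-binding protein gene ELAVL4 (0.0257). STMN4 had no near neighbour: the closest, NELL2, lay at a distance of 0.551, and 0 genes lay within 0.25. The nearest genes were SF3B14 for STMN1, C22orf28 for STMN3, TMEM167A for MAP2, C6orf162 for MAP1A and PPP1R35 for MAP4, at distances of 0.0107 to 0.0412. Over 2 values many genes are alike by this measure, with 233 within 0.25 of MAP1A and 144 within 0.25 of STMN3.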

How the data were processed

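RNA from 2 differentiated and 2 undifferentiated SH-SY5Y libraries was depleted of ribosomal RNA and sequenced by Illumina, per the labels' protocols. The submitters' processing notes name TopHat2 2.0.8, Cufflinks 2.0.2 and build hg19. The authors deposited 1 FPKM per gene and group, its log2 fold change, a score (the test statistic, of opposite sign), p-values and q-values, per the file headers. No source used here gives the scaling, the annotation or how libraries were combined. The labels do not say whether replicates were separate cultures, so q-values may measure technical spread. Depth is unknown, so no counting interval is given.

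A standard error was computed as the size of the log2 fold change over that of the statistic (median 0.362), and 95% intervals are normal. It inherits the authors' variance model. Rows with a date in place of a gene (28) were left out of the median gene comparison, as were values of 0. That comparison was run on simulated data with noise drawn from the same implied standard errors. The run therefore cannot check those errors or the spread between libraries. Members, lists and tests were chosen with earlier results of these data known. Named genes are all members, up to 3 genes per list with the largest change relative to the median gene among those called by either test, and each member's nearest gene. HAND2, COL3A1, S100B and TP53BP1 were chosen after their values were seen, and the antisense genes by shared sequence. Of the list genes, 1 (SVBP) was matched through an older symbol. Starts of hg19 loci were raised by 1. Python 3.11.15, numpy 2.4.6, pandas 2.3.3, scipy 1.17.1 and matplotlib 3.10.9 were used. Alternatives covered the threshold, filter, scaling and pseudocount.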

Additional observations from a re-analysis of the deposited data

How the results depend on the processing

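No paired analysis was possible because the table holds 1 value per group, which also kept any library from being left out. STMN4, MAPT and MAP6 kept their direction and their call under every scaling and filter tried that included them. STMN4 passed the filters at 1 and 5 FPKM only through differentiated cells, so its calls under those filters are no support. Rescaling to an equal sum, quantile normalization and subtraction of the median raised log2 fold changes by a median of 0.78, 0.60 and 0.62. Relative to an equal sum, quantile normalization, the median gene and genes of similar mean FPKM (10 bins), in that order, the log2 fold change turned positive for MAP1A (0.50, 0.22, 0.34 and 0.24), MAP1B (0.71, 0.62, 0.55 and 0.67), MAP2 (0.42, 0.32, 0.26 and 0.34) and STMN2 (0.77, 0.79, 0.61 and 0.73). STMN1 stood at 0.0567, 0.0339, -0.10 and 0.0112, and STMN3 at 0.0207, -0.10, -0.14 and -0.06, none past the threshold. At q below 0.01, 3 members were called higher and 1 lower, and no share over all genes is given at that level. With pseudocounts of 1 and 3 FPKM, STMN4 stood at 2.97 and 2.10 and MAPT at 1.03 and 0.66, and with 1 FPKM the MAP1B share was 44.3% in differentiated and 47.5% in undifferentiated cells. Chosen after seeing the data, quantile normalization gave 1 other structural MAP a call below, and the bins left 5 spindle MAPs below. The difference of MAP1A less MAP2 was -0.10 under both. No share over all genes is given for the list counts in these settings.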
